A study of Saccharomyces cerevisiae with 24 samples.

Results

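RGI1 (YER067W), RGI2 (YIL057C), TMA10 (YLR327C) and RTC3 (YHR087W) are 4 budding yeast genes that were followed across 12 two-colour microarray comparisons. They were taken by their open reading frame names from the 6307 open reading frames spotted on the arrays, and each has 1 spot. The 4 genes had been grouped because their ratios in these same comparisons moved, so the values below describe them and no test between groups was made on them. The grouping calls them starvation-induced, and that name is set against the data in the account of their levels.

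Each comparison was hybridised on 2 arrays with the dyes reversed, 24 arrays in all, from poly(A)+ RNA labelled with Cy3 and Cy5. All strains were BY4741 (mating type a, ura3Δ0 leu2Δ0 his3Δ1 met15Δ0), and each deletion replaced the whole gene with the kanR marker. Cultures in YPD at 30 °C, apart from those for heat and the post-diauxic state, had an A600 near 0.2 when harvested untreated or when a drug was added. The med20Δ strain was set against wild type (WT) untreated, after 1 h in 0.2 µg/ml rapamycin, after 1 h in chlorpromazine (CPZ), after 90 min in 2.5 µg/ml tunicamycin, after 30 min in 0.32 mM H2O2, after 20 min at 39 °C following growth at 29 °C, and after 48 h of growth from an OD600 of 0.01 (post-diauxic). For CPZ the labels state 250 mM and the study's methods give the same figure in µM. Rapamycin-treated cells were set against untreated cells within med20Δ and within WT, and med16Δ, med31Δ and cycCΔ were each set against WT after the same rapamycin treatment. The sources do not say whether the 2 arrays of a pair held RNA of separate cultures, so a pair counts as 1 replicate, and no p-value could be given. A gene was counted as past 2-fold where the mean log2 ratio of its pair was at least 1 in size.

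Mediator is the complex that carries signals from DNA-bound activators and repressors to RNA polymerase II. Med20 belongs to its head module, Med31 to its middle, Med16 to its tail, and cyclin C (gene SSN8) to its kinase module. Rapamycin inhibits the TORC1 kinase and puts cells into a state like nutrient starvation. RGI1 and RGI2 are paralogs whose names stand for respiratory growth induced, and they act in energy metabolism when cells respire. TMA10 encodes a small protein found with ribosomes (translation machinery associated) and is a paralog of STF2. RTC3 (restriction of telomere capping) encodes a protein that resembles the N-terminal domain of the SBDS family, to which the ribosome maturation factor Sdo1 belongs. Genes of this kind are known to be raised in yeast by stress and as glucose runs out, largely through the stress factors Msn2 and Msn4. The spots of RGI1 and RGI2, and of TMA10 and STF2, could cross-hybridise, and their ratios are uncertain to that extent.

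Between 5653 and 5929 genes were measured on both arrays of a pair, and Pearson's r between the arrays of a pair, across genes, ran between 0.231 and 0.917. The median net intensity of a channel ran between 82.5 and 1072.5 units. The deleted gene was lower in its own strain in each of the 10 comparisons. MED20 was between -0.89 and -0.26 on the log2 scale over the 7 med20Δ comparisons. Its ratio was smallest in size with H2O2 (-0.38 and -0.13), and next in post-diauxic cells (mean -0.31). MED16 was at -0.67, MED31 at -1.05 and SSN8 at -0.88. The spot of the deleted gene still read above background in both deletion channels of each med20Δ comparison and of med31Δ and in 1 of 2 channels of med16Δ, and in neither channel of cycCΔ. Among mating type genes, the a-specific MFA1, MFA2 and STE2 had median intensity percentiles of 95.8, 96.7 and 89.6 over the 48 channels, and MF(ALPHA)1 had 11.7. STE6 at 39.4 and the α-specific SAG1 at 65.3 lay between them. No spot of the 4 genes was flagged on any array. Of their 192 channel values, 179 were above the 95th percentile of the 29 spots with no named gene, which was taken as background.

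RGI2 was not above background in any of the 12 channels of the med16Δ, med31Δ and cycCΔ arrays. Its net intensity there was between 0.00 and 35.0 in the deletion strains and at most 57.5 in WT, so no ratio is given for it in those 3 comparisons. On the same arrays the spot of its paralog RGI1 read up to 3733 in a deletion strain and 6168 in WT, so the RGI2 spot stayed at background where the RGI1 spot was bright. RTC3 was also not above background in 1 channel, med16Δ on replicate 2.

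The level of each gene was described by the percentile of its net intensity among all open reading frames in the same channel. Probes differ in length and labelling, so a percentile is read for 1 gene across conditions and not between genes, and the channels of different conditions come from different arrays. Whether channels overlap is given as a description only. The share of all open reading frames whose channels do not overlap was not counted, and with so few channels many could be apart. In bulk RNA, a change in the number of cells that express a gene and a change in RNA per cell cannot be told apart.

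RGI1, a gene of respiratory growth, stood highest in post-diauxic cells, at the 89.4 and 90.5 percentiles in med20Δ and at 94.1 and 94.7 in WT. After heat it was at 57.1 and 58.3 in med20Δ against 84.4 and 90.2 in WT. With CPZ it was at 44.8 and 53.0 in med20Δ against 80.3 and 83.2 in WT. The lowest channels were of med20Δ, at 19.1 and 20.7 with tunicamycin and between 14.2 and 21.1 in 4 untreated channels. In WT, tunicamycin (34.0 and 43.7) and H2O2 (43.9 and 45.7) lay below 4 untreated channels between 49.99 and 54.8, as did the lowest rapamycin channel (42.7). The med20Δ and WT channels did not overlap in post-diauxic cells, after heat, with CPZ, with tunicamycin or untreated. They overlapped with H2O2, with 45.3 and 56.1 in med20Δ against 43.9 and 45.7 in WT, and after rapamycin, with 29.1 to 57.2 in 4 med20Δ channels against 42.7 to 65.4 in the 4 WT channels of the same experiment.

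RGI2, its paralog, was near the top of the array in post-diauxic cells of both strains, at 96.7 and 98.0 in med20Δ and 97.3 and 97.9 in WT. No other condition of either strain took it above 66.7. With CPZ it was at 21.4 and 25.8 in med20Δ against 64.2 and 66.7 in WT, and after heat at 23.9 and 25.1 in med20Δ against 58.4 and 60.1 in WT. In the other conditions of the med20Δ arrays it lay between 10.5 and 34.0 in med20Δ and between 18.1 and 36.5 in WT, and the neighbouring conditions in that range did not separate beyond their spread.

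TMA10, the ribosome-associated gene, stood highest in post-diauxic cells, at 98.6 and 98.7 in med20Δ and 98.7 and 99.5 in WT. Next on the med20Δ arrays came heat and CPZ. Heat gave 94.0 and 95.8 in med20Δ and 91.7 and 95.4 in WT. CPZ gave 90.8 and 91.8 in med20Δ and 94.2 and 96.9 in WT. In WT, the channels of CPZ overlapped those of heat, and the channels of heat those of tunicamycin. With tunicamycin the channels of the strains did not overlap, at 41.8 and 85.1 in med20Δ against 88.4 and 93.4 in WT. H2O2 gave 47.9 and 54.9 in med20Δ against 53.3 and 64.8 in WT, which overlapped, and rapamycin 30.3 to 43.1 in 4 med20Δ channels, all below the WT channels of the same experiment. Untreated cells were between 25.9 and 33.7 in 4 med20Δ channels and between 39.2 and 61.8 in 4 WT channels. In each strain the untreated channels overlapped the rapamycin channels of the same experiment, and in WT also those of H2O2. The WT rapamycin channels beside med16Δ, med31Δ and cycCΔ were higher, at 82.9 to 95.9, and are taken up below.

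RTC3, the SBDS-related gene, had another order: it stood highest with CPZ, at 96.1 and 96.3 in med20Δ and 98.1 and 99.7 in WT. Its WT levels were 91.6 and 91.8 after heat, 89.6 and 91.5 with tunicamycin, and 82.3 and 88.2 in post-diauxic cells, of which the first 2 conditions were apart by less than the spread of tunicamycin. In med20Δ the same conditions gave 77.1 and 88.8, 54.3 and 72.1, and 58.2 and 76.2. H2O2 was the condition with the higher channels in the deletion strain, at 59.6 and 82.8 in med20Δ against 40.9 and 49.2 in WT. After rapamycin 4 med20Δ channels were between 14.9 and 34.4, all below the WT channels of the same experiment (59.6 to 72.3). Untreated cells were between 10.8 and 31.7 in med20Δ, overlapping the rapamycin channels, and between 37.5 and 51.5 in WT, where both H2O2 channels lay inside that range.

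**Figure D1:**
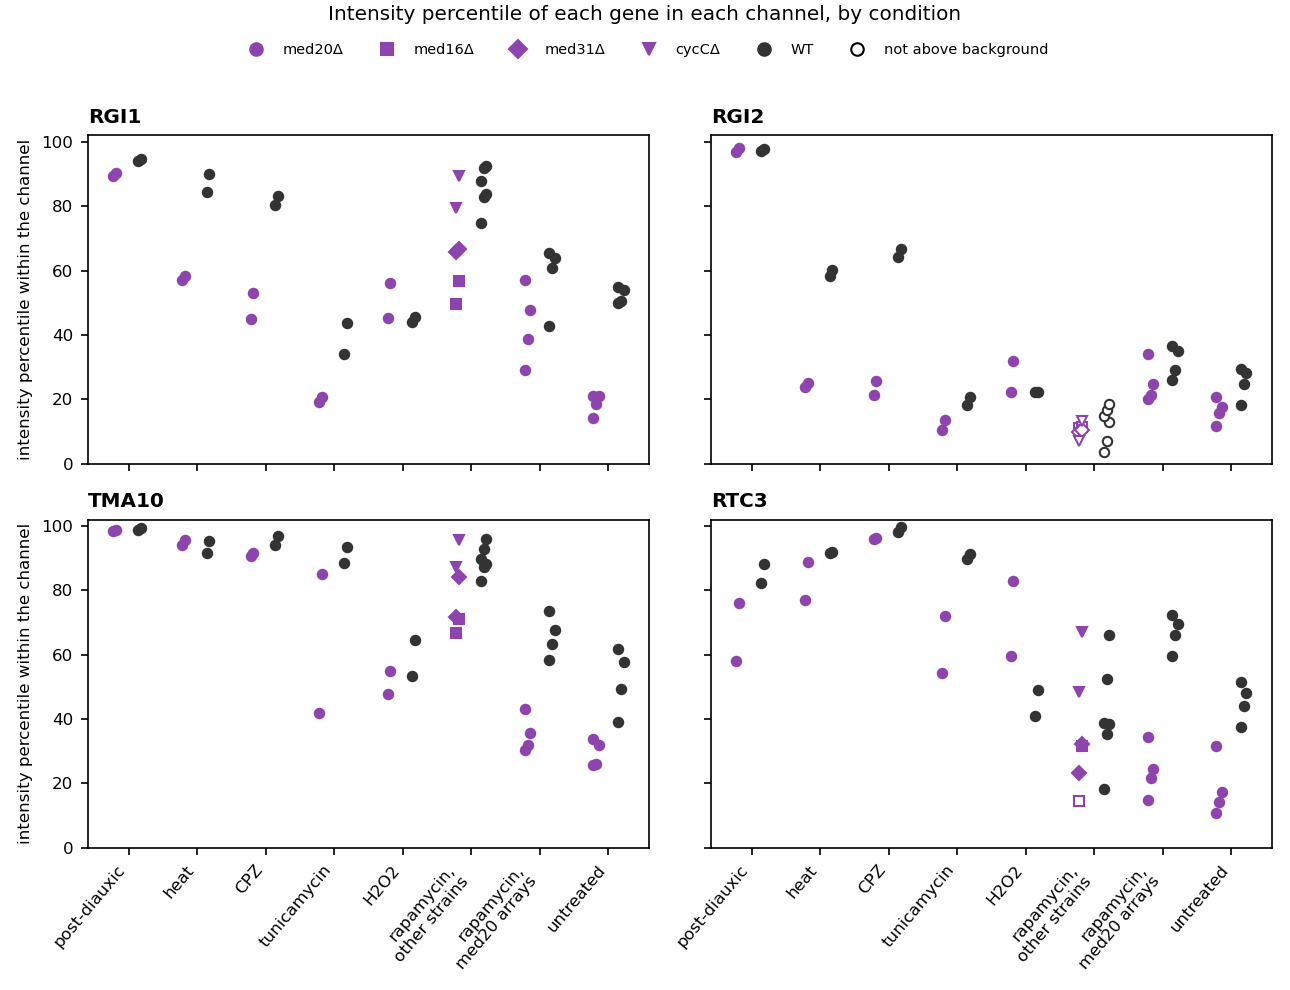
Percentile of net intensity among all open reading frames of the same channel (y axis) for each gene in each channel, by condition (x axis). Deletion strains are purple and left, wild type is black and right, and open symbols were not above background. RGI2 stood above the 96th percentile in post-diauxic cells of both strains and at or below 66.7 in all other channels.

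Set against the name starvation-induced, RGI1, RGI2 and TMA10 ranked highest after 48 h of growth within med20Δ and within WT. RTC3 was also higher in post-diauxic than in untreated cells of each strain, with no overlap, and in WT it ranked higher still with CPZ, heat and tunicamycin. No array set post-diauxic cells against growing cells of the same strain, so no ratio of that change was measured.

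WT cells after rapamycin read differently on the 2 sets of arrays that held them. RGI1 was between 74.9 and 92.5 in the 6 WT channels beside med16Δ, med31Δ and cycCΔ, and between 42.7 and 65.4 in the 4 WT channels of the experiment with med20Δ. TMA10 showed the same split, with 82.9 to 95.9 in the first set and 58.3 to 73.6 in the other. RGI2 had the opposite order, with 3.68 to 18.7 in the first set, none above background, and 25.9 to 36.5 in the other. RTC3 overlapped, with 18.3 to 66.0 in the first set and 59.6 to 72.3 in the other. The 6 arrays therefore stand apart at these spots in the condition they share, the part this plays in the ratios was not tested, and each count over comparisons is given with and without them.

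In the experiment with med20Δ, the pair means of the 4 genes for rapamycin against untreated cells stayed under 2-fold. These arrays were among the dimmer ones, with channel medians of 103 to 252 units, and the background correction pulls ratios of dim spots towards 0. The other rapamycin arrays, where WT levels of RGI1 and TMA10 were higher, held no untreated cells. The ratio of rapamycin-treated to untreated cells was above 0 on both arrays for all 4 genes in both strains, and none was past 2-fold, whereas 3.19% of 5741 genes in med20Δ and 3.94% of 5738 genes in WT were at least 2-fold higher. In med20Δ the log2 ratios of RGI1 were 0.60 and 1.21, of RGI2 0.12 and 0.22, of TMA10 0.28 and 0.12, and of RTC3 0.04 and 0.41. In WT those of RGI1 were 0.32 and 0.31, of RGI2 0.12 and 0.13, of TMA10 0.53 and 0.37, and of RTC3 0.50 and 0.97. The median of the 4 pair means was 0.21 in med20Δ and 0.38 in WT, beside 0.00 for all genes in each. RGI1, with a mean of 0.90 in med20Δ, passed 2-fold when the local background was subtracted (1.59), with no background correction (1.04) and in the authors' normalized ratios (1.26).

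The response was larger in med20Δ for RGI1, by 0.59, and larger in WT for RTC3, where the difference of med20Δ minus WT was -0.51, and for TMA10 at -0.25. These differences were not tested. For RGI1 the med20Δ arrays did not overlap the WT arrays, and for RTC3 and TMA10 the WT arrays were all above the med20Δ arrays. The share of all genes that are apart in this way was not counted. RTC3 in untreated med20Δ was near background here, at net intensities of 44.0 and 22.0 against limits of 31.0 and 18.6. The background correction pulls ratios of such dim spots towards 0, so the separation of RTC3 is uncertain.

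In untreated cells each of the 4 genes had ratios of med20Δ to WT below 0 on the 2 arrays, and none was past 2-fold, beside 0.683% of 5714 genes that were at least 2-fold lower. RGI1 had log2 ratios of -0.71 and -1.27 (mean -0.99), TMA10 of -0.79 and -0.64 (mean -0.72), RTC3 of -0.49 and -0.61 (mean -0.55), and RGI2 of -0.22 and -0.34 (mean -0.28). RGI1 lay just inside the limit, and it passed 2-fold with local background subtraction (-1.46), with no background correction (-1.12) and in the authors' ratios (-1.51). The stress genes that were lowest in the same comparison were DDR48 (-1.42), the glycerol-3-phosphate dehydrogenase gene GPD1 (-1.40), and the small heat shock protein genes HSP12 (-1.23) and HSP26 (-1.11).

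After rapamycin, RTC3 and TMA10 were past 2-fold lower in med20Δ than in WT, beside 1.81% of 5747 genes. RTC3 had log2 ratios of -0.68 and -1.91 (mean -1.29) and TMA10 of -0.89 and -1.35 (mean -1.12), so both were past 2-fold on replicate 2 only. RGI1 had -0.33 and -0.75, and RGI2 had -0.08 and -0.24. The median of the 4 genes was -0.83 (-0.50 and -1.05 on the single arrays), beside 0.00 for all genes.

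The 4 comparisons of the rapamycin experiment form a loop, in which the ratio of med20Δ to WT after rapamycin equals the untreated ratio plus the med20Δ response minus the WT response. The loop closed for the 4 genes to within 0.23. By the sum and by the direct arrays, RGI1 was at -0.40 and -0.54, RGI2 at -0.23 and -0.16, TMA10 at -0.97 and -1.12, and RTC3 at -1.06 and -1.29. Over 5647 genes the sum and the direct ratio differed by a median of 0.22 in size. For RGI1 the untreated ratio was the largest of the 3 terms in size. RTC3 took -0.55 from the untreated ratio and -0.51 from the difference in response.

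**Figure D2:**
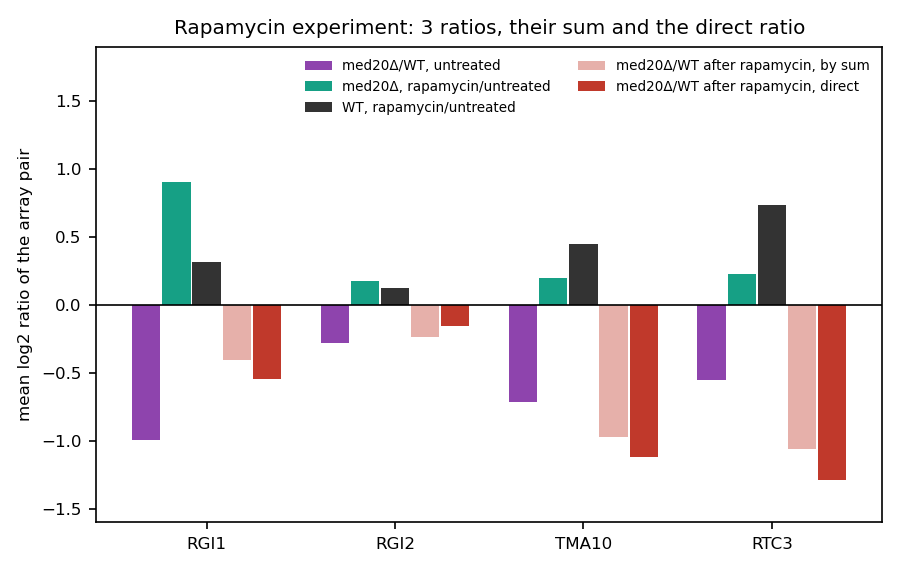
Mean log2 ratio of each array pair (y axis) for the 4 genes in the rapamycin experiment, with the ratio of med20Δ to WT after rapamycin given by sum and directly. The sum and the direct ratio differed by 0.08 (RGI2) to 0.23 (RTC3) in size.

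With CPZ the 2 RGI genes were among the lowest of all genes in med20Δ. RGI1 had log2 ratios of -2.01 and -2.08 and was the 2nd lowest of 5694 genes, and RGI2 had -1.84 and -1.84 and was the 4th lowest. Both were past 2-fold on each array. Over all genes, 2.16% were at least 2-fold lower by the pair mean, and 65 genes were so on both arrays. TMA10 had -0.71 and -1.28 (mean -0.995) and RTC3 had -0.50 and -1.42 (mean -0.96), just inside the limit, and RTC3 was past it in the authors' ratios (-1.16).

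With tunicamycin the other 2 genes were the lowest. RTC3 had log2 ratios of -2.64 and -1.57 (mean -2.10) and TMA10 had -2.77 and -1.17 (mean -1.97), the 3rd and 4th lowest of 5653 genes. Both were past 2-fold on each array, though for each gene the 2 arrays were apart by more than 2-fold. Over all genes, 0.743% were at least 2-fold lower by the pair mean, and 17 genes were so on both arrays. RGI1 had -1.15 and -0.67 (mean -0.91) and RGI2 had -0.72 and -0.44 (mean -0.58). RGI1 was past 2-fold with local background subtraction (-1.18) and in the authors' ratios (-1.14). HSP26 (-2.74) and HSP12 (-2.69) were the lowest genes of the stress list here.

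Heat split the 4 genes. RGI1 had log2 ratios of -1.68 and -2.45 (mean -2.06) and RGI2 had -1.44 and -1.59 (mean -1.51), and both were past 2-fold on each array. Of 5709 genes, 2.01% were at least 2-fold lower by the pair mean, and 64 genes were so on both arrays. RTC3 had -0.44 and -1.59 (mean -1.01), past 2-fold on replicate 2 only and not in the authors' ratios (-0.76). TMA10 was slightly higher in med20Δ, with 0.45 and 0.09, so that RGI1 and TMA10 were 2.34 apart on the log2 scale. Its arrays did not overlap those of the other 3 genes.

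With H2O2 none of the 4 genes was below 0 on both arrays. RTC3 had log2 ratios of 2.39 and 0.50 (mean 1.44) and was the single gene of the 4 past 2-fold higher, beside 2.83% of 5732 genes. Its size rests on replicate 1. RGI1 had 0.53 and 0.00, RGI2 had 0.37 and 0.00, and TMA10 had 0.12 and -0.79. None of the 4 was past 2-fold lower, beside 1.54% of all genes. The median of the 4 genes was 0.23 (0.45 and 0.003 on the single arrays), beside 0.00 for all genes.

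In post-diauxic cells RTC3 was past 2-fold lower in med20Δ, beside 1.98% of 5716 genes, with log2 ratios of -0.43 and -2.22 (mean -1.33), of which replicate 2 alone was past the limit. RGI1 had -0.58 and -0.99 (mean -0.79). RGI2 (0.27 and -0.51) and TMA10 (0.01 and -0.49) had arrays on both sides of 0. The condition with the highest levels of RGI1, RGI2 and TMA10 was thus one with ratios under 2-fold for all 3.

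**Figure D3:**
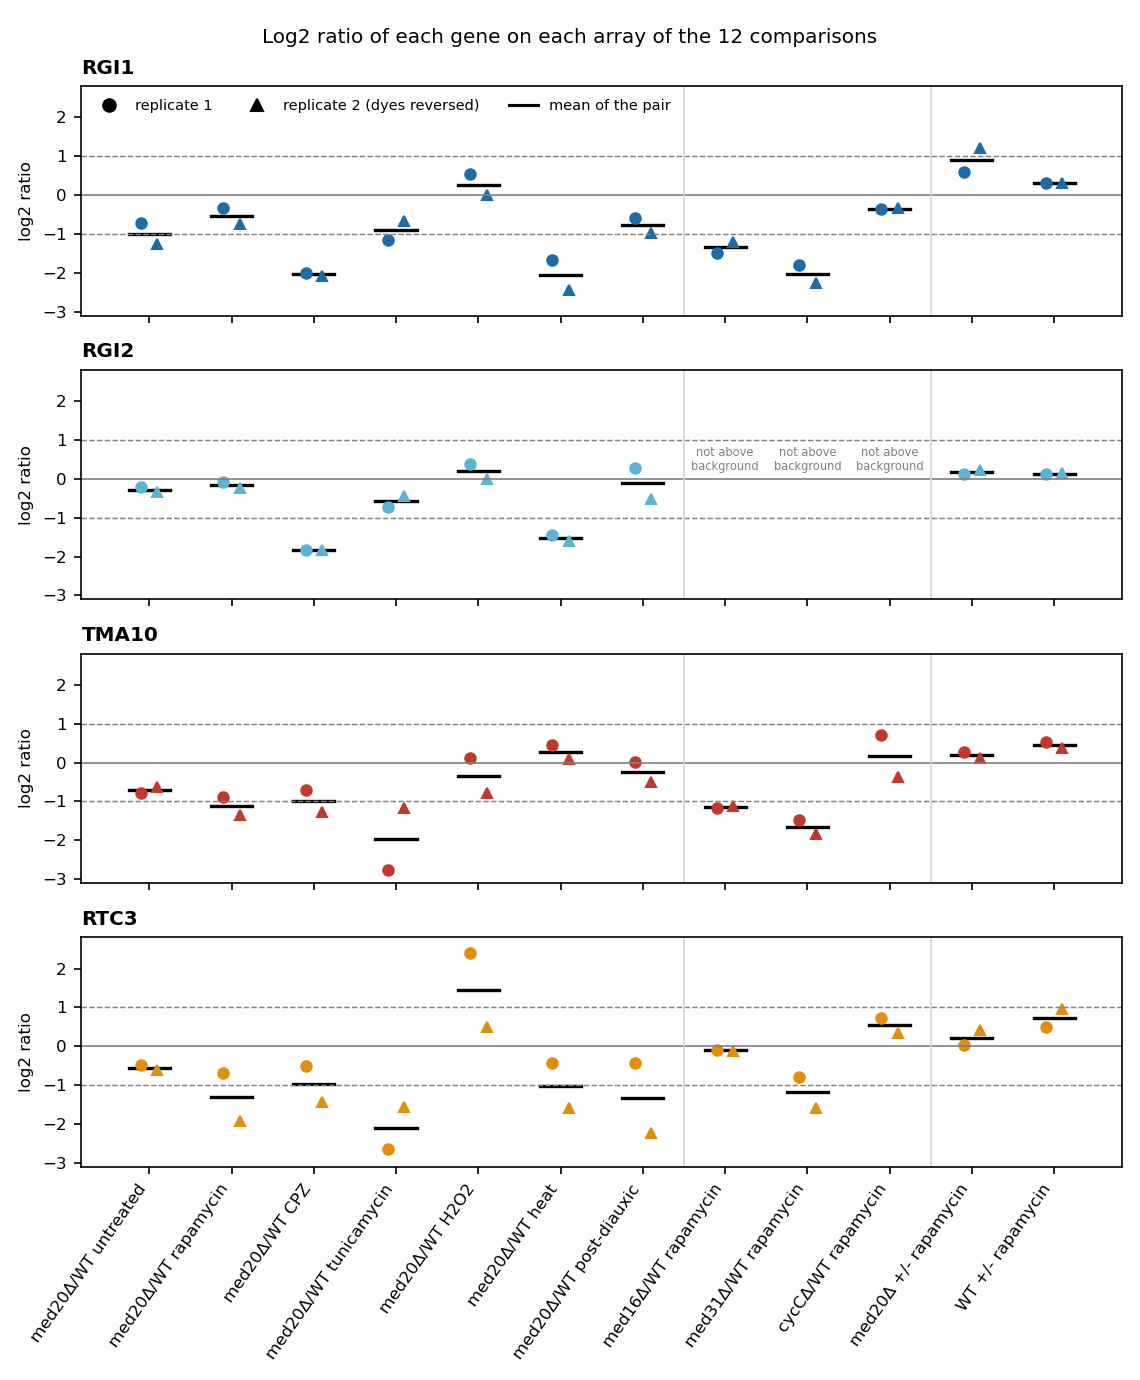
Log2 ratio of each gene on each array (y axis) in the 12 comparisons (x axis), with replicate 1 as a circle, replicate 2 as a triangle and the pair mean as a bar. Dashed lines mark 2-fold. RGI1 and RGI2 were lowest with CPZ and heat in the med20Δ comparisons, TMA10 and RTC3 with tunicamycin, and RTC3 was highest with H2O2.

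Among the other Mediator deletions after rapamycin, RGI1 and TMA10 were past 2-fold lower in med31Δ and in med16Δ, and not in cycCΔ. In med31Δ, RGI1 had log2 ratios of -1.80 and -2.26 (mean -2.03, the 2nd lowest of 5929 genes), TMA10 had -1.49 and -1.83 (mean -1.66, the 8th lowest) and RTC3 had -0.79 and -1.58 (mean -1.18). All 3 were past 2-fold, beside 0.742% of all genes, RTC3 on replicate 2 only.

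In med16Δ, RGI1 had -1.48 and -1.21 (mean -1.35) and was the lowest of 5926 genes, and TMA10 had -1.18 and -1.12 (mean -1.15) and was the 5th lowest. Both were past 2-fold on each array. Over all genes, 0.101% were at least 2-fold lower by the pair mean, and 3 genes were so on both arrays. RTC3 had -0.10 and -0.11, with med16Δ not above background on replicate 2. In cycCΔ no gene of the 4 was past 2-fold lower, beside 0.243% of 5773 genes. RTC3 was higher on both arrays, with 0.72 and 0.36 (mean 0.54), RGI1 had -0.37 and -0.35, and TMA10 had 0.70 and -0.37.

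The same rapamycin treatment had given -0.54 for RGI1, -1.12 for TMA10 and -1.29 for RTC3 in med20Δ. The differences between deletion strains were not tested, and the med20Δ arrays belong to the set in which WT levels of RGI1 and TMA10 were lower.

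Counted over all deletion comparisons, RGI1 was past 2-fold lower in 4 of 10, TMA10 in 4 of 10, RTC3 in 5 of 10 and RGI2 in 2 of the 7 in which it was above background. Without the 6 arrays of med16Δ, med31Δ and cycCΔ, the counts were 2 of 7 for RGI1, RGI2 and TMA10 and 4 of 7 for RTC3. Of the 5488 genes measured in all 7 med20Δ comparisons, 2.22% were at least 2-fold lower in 2 or more and 0.419% in 4 or more. The comparisons used WT and med20Δ cells of the same strains, and the genes were chosen on these values.

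The 2 paralogs were the pair with the most alike ratios. RGI1 and RGI2 correlated across the 9 comparisons in which both were above background with a Pearson's r of 0.91 (Spearman's rho 0.90), and they differed most, by 0.73, in the rapamycin response of med20Δ. TMA10 and RTC3 correlated with an r of 0.63 and RGI1 and RTC3 with 0.62 over 12 comparisons. The lowest was RGI2 with TMA10, at 0.22 over 9 comparisons. These points share strains and array sets, so the correlations are descriptions.

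RTC3 carried the largest difference between dye orientations. Its ratio with the numerator in Cy5 was below that in Cy3 in 11 of 12 pairs, with a median gap of -0.63 and a range of -1.89 to 1.07. Of 4986 genes measured in all 12 comparisons, 11.1% were at least as one-sided. RGI1 was below in 8 of 12 pairs and TMA10 in 7 of 12. Each pair mean holds both orientations once, while the values of single arrays of RTC3 hold the gap.

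The general stress response genes, a list of 33 that are textbook targets of Msn2 and Msn4 and does not hold the 4 genes, were set beside the 4 genes. At least 2-fold lower in med20Δ were 5 of 32 measured genes untreated (median -0.40), 10 of 32 after rapamycin (median -0.62), 12 of 32 with CPZ (median -0.74), 8 of 32 with tunicamycin (median -0.72) and 10 of 31 after heat (median -0.51). After heat 2 of the 31 were at least 2-fold higher. The largest share of lower genes was in post-diauxic cells, with 19 of 30 (median -1.15). There only RTC3 of the 4 genes was past 2-fold. With H2O2, 13 of 32 were at least 2-fold higher and 0 lower (median 0.71), led by the catalase gene CTT1 (2.63), DDR2 (2.41) and the disaggregase gene HSP104 (2.33).

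In med16Δ, 1 of 30 stress genes was at least 2-fold lower, the phosphoglucomutase gene PGM2 (-1.05), while RGI1 and TMA10 were both past the limit. In med31Δ, 5 of 30 were lower, with HSP12 at -1.72 and SPI1 at -1.37. In cycCΔ, 0 of 29 were lower and 3 were higher, HSP12 (2.71), CTT1 (1.55) and SPI1 (1.33). After rapamycin 8 of 31 were at least 2-fold higher in med20Δ and 8 of 31 in WT, where HSP12 was at 2.51 and DDR2 at 2.14, and 0 of the 4 genes were in either strain. UBI4, the polyubiquitin gene, went the other way in WT at -1.96.

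**Figure D4:**
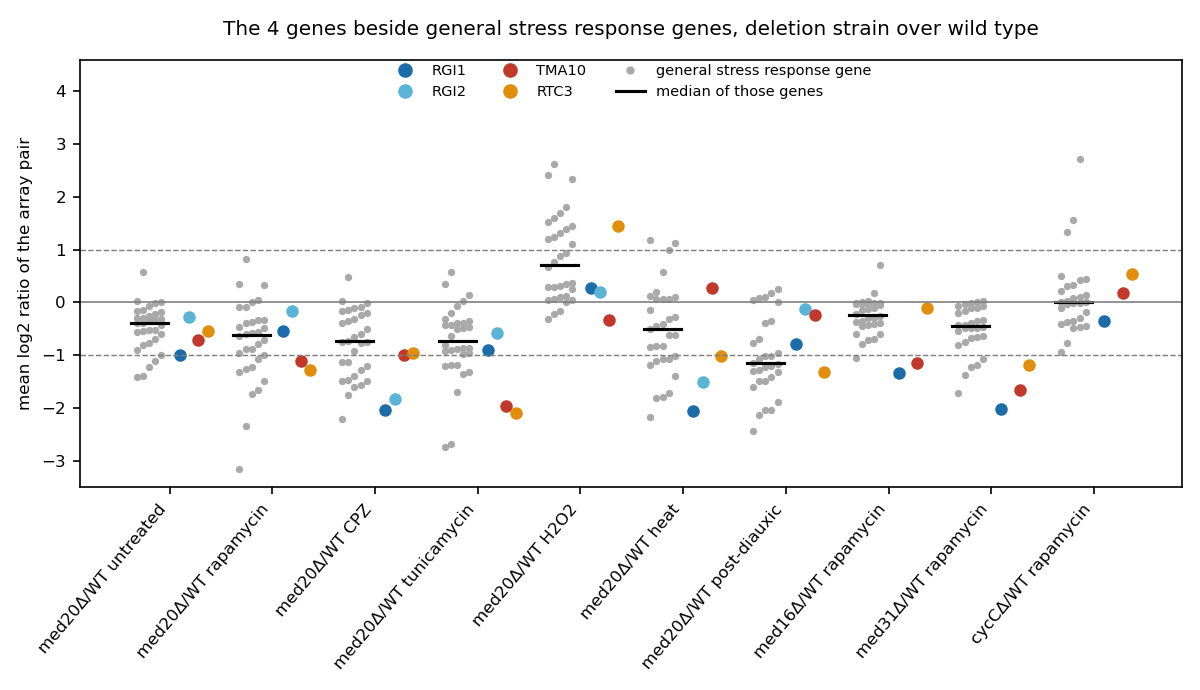
Mean log2 ratio of deletion strain to WT (y axis) for the 4 genes (coloured) and for the measured genes of the stress response list (grey, with their median) in the 10 deletion comparisons (x axis). The list median was lowest in post-diauxic cells (-1.15) and highest with H2O2 (0.71).

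Genes of respiratory and gluconeogenic growth, a list of 20, moved less. At least 2-fold lower in med20Δ were 1 of 19 with CPZ, with tunicamycin and after heat, in each case the hexose transporter gene HXT5 (-1.64, -1.03 and -1.67). In post-diauxic cells 3 of 19 were lower, the fructose-1,6-bisphosphatase gene FBP1 (-1.30), HXT5 (-1.14) and the PEP carboxykinase gene PCK1 (-1.08). Untreated, the isocitrate lyase gene ICL1 was at -1.35, and with H2O2 the citrate synthase gene CIT2 was at 1.27. None of 20 was past 2-fold in med16Δ or med31Δ, beside 0.101% and 0.742% of all genes that were at least 2-fold lower. The median of the list lay between -0.39 and -0.04 over the 10 deletion comparisons.

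Of 23 regulator genes of these pathways, none was past 2-fold lower in any deletion comparison. The share over all genes ran between 0.101% (med16Δ) and 2.16% (CPZ), so a count of none lies near it. TPK2, a catalytic subunit of protein kinase A, was past 2-fold higher with H2O2 (1.12 and 2.02). It was below 0 in post-diauxic cells (-0.93), after heat (-0.74), untreated (-0.53) and with CPZ (-0.46). GIS1, a factor of post-diauxic gene expression, was at -0.89 with CPZ and -0.88 in post-diauxic cells. MSN2 was at -0.32 after rapamycin and -0.45 with CPZ, and YAK1 at -0.48 after rapamycin. Others of the list were higher: HAP4 was at 0.93 in cycCΔ and 0.60 in med16Δ. ADR1 was at 0.81 with H2O2 and 0.63 after heat, but at -0.71 in post-diauxic cells.

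The relatives of the 4 genes were set beside them. STF2, the paralog of TMA10, was past 2-fold lower with tunicamycin (-1.75 and -0.86, mean -1.30) and at -0.60 after rapamycin, and its ratios correlated with those of TMA10 with an r of 0.79 over 12 comparisons. It differed most, by 0.89, with H2O2. SDO1, which shares the SBDS family with RTC3, was not past 2-fold in any comparison and correlated with RTC3 at -0.06. INH1, an inhibitor of the mitochondrial ATP synthase, was at 1.35 with H2O2. STF1, its paralog, was measured on both arrays in med16Δ, med31Δ and cycCΔ alone, between -0.02 and 0.01. Of 9 measured genes named for association with the translation machinery, TMA10 left out, none was at least 2-fold lower in med20Δ with tunicamycin. That lies near the share of 0.743% over all genes, and TMA19 was higher at 1.22.

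The genes next to the 4 in the genome were looked up in the annotation. The annotated neighbours with a spot were RRT13 and the deadenylase complex gene MOT2 beside RGI1, YIL059C beside RGI2, YLR326W beside TMA10 and the ribosome biogenesis gene RPF1 beside RTC3. Over the deletion comparisons in which they were measured none was at least 2-fold lower, which lies near the 0.101% to 2.16% of all genes. The lowest values were -0.55 for RRT13, -0.70 for MOT2, -0.30 for YIL059C, -0.41 for YLR326W and -0.22 for RPF1. The other neighbours are 2 tRNA genes and YHR086W-A, which were not measured here.

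The genes with ratios most like those of each of the 4 were found among 4986 genes by Pearson's r over the 12 pair means. For RGI1 they were MRX9 (0.92), YOR292C (0.92) and PGM2 (0.90), of which PGM2 spanned -1.80 to 0.66. For TMA10 they were MTF2 (0.90), MATALPHA2 (0.87) and SPR1 (0.87), and for RTC3 VPS33 (0.92), RVS161 (0.92) and OM45 (0.91). Most of these had small ratios, as MTF2, which stayed between -0.15 and 0.11. For RGI2 the list was GAL2 (0.94), DER1 (0.93) and MPD1 (0.92), but 3 of its 12 points are not above background, and by Spearman's rho these genes ranked 59th, 302nd and 717th. For the mean of the 4 genes the leading genes were the ammonia export family gene ATO2 (0.96), YNL092W (0.96), the peroxisomal β-oxidation gene FOX2 (0.94), EMP46 (0.93) and STF2 (0.92). The mean includes RGI2 at the same 3 points.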

How the data were processed

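Each array file held, per the file headers, foreground and background intensity for Cy5 and Cy3, a raw log10 ratio, and a normalized log10 ratio made by the authors by a method not given in the sources used here. The deposited series table held the same normalized log10 ratios (largest difference 0.0, column medians -0.01 to 0.02). The authors' error and P-value columns, their own findings, were not used. The 576 control spots and all spots not carrying flag 1 were left out. Intensities were corrected by normexp (offset 50), which pulls ratios of dim spots towards 0, and normalized within each array by loess with limma 3.58.1 in R 4.3.3. Log2 ratios were turned to deletion over WT or rapamycin over untreated and averaged over the dye-reversed pair. No model was fitted, because all tests would need the 2 arrays to be separate cultures. The number of arrays limits the precision. On data simulated on med20Δ against WT after rapamycin, with 5747 genes, 136 of 187 genes changed 3-fold were called with the right sign and 0 of 5560 unchanged genes. The simulated noise was smaller than the spread of some real pairs, such as RTC3 in this comparison (standard deviation 0.87). The 0 therefore gives no rate of false calls on the real arrays. Gene names came from a RefSeq table (assembly R64) that matched 5801 of 6307 open reading frames. The named genes were the 4 genes, the deleted genes, their relatives and flanking genes, the 3 most alike genes of each (5 of their mean), and up to 4 genes of each list with the largest ratios in the comparison described. The 4 genes and the lists were chosen with earlier results of these data known. Promoter and protein sequences were not analysed here. Alternatives were other background and normalization settings, the authors' ratios, single arrays, and for gene counts a filter on dim genes and 2-fold on both arrays. Python 3.11.15 with pandas 2.3.3, numpy 2.4.6 and matplotlib 3.10.9 was used for all else.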

Additional observations from a re-analysis of the deposited data

Results flagged for a closer look

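The ratio of med20Δ to WT changed its direction between conditions for each of the 4 genes, in that both arrays of one condition were above 0 and both of another below 0. RTC3 with H2O2 lay 3.55 above its value with tunicamycin on the log2 scale, RGI1 with H2O2 lay 2.33 above its value after heat, RGI2 with H2O2 lay 2.03 above its value with CPZ, and TMA10 after heat lay 2.24 above its value with tunicamycin. For RGI1 and RGI2 one of the H2O2 arrays was at 0.00 to the second decimal. After rapamycin, RTC3 in cycCΔ lay 1.83 above its value in med20Δ. These differences were not tested, and the genes were chosen on these values.

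Within groups of 4 to 10 channels of one strain and condition, none of the 16 sets of percentiles had a single channel far from the others by Dixon's rule, which by chance marks about 1 in 20 sets. The 4 sets of WT after rapamycin pool 2 groups of arrays that stand apart, and nothing is read from those sets.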

How the results depend on the processing

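No paired analysis was possible because each comparison gives 1 ratio per array and no test was made, and the replicate number of an array also names its dye orientation. The medians of the 4 genes (RGI1, TMA10 and RTC3 alone where RGI2 was not above background) kept their sign in 83 of 84 values over 12 comparisons and 7 alternatives. The exception was cycCΔ, at 0.17, where the single arrays gave -0.35 to 0.70. No median past 2-fold changed sign. Untreated, the median of -0.63 became -0.72 with no background correction, -0.94 with local background subtraction, -0.59 with median centring and -0.96 in the authors' ratios (single arrays -0.63 to -0.60). The rapamycin response of 0.38 in WT became 0.52 with local subtraction and 0.48 in the authors' ratios. That of 0.21 in med20Δ became 0.34 with no correction and 0.46 with local subtraction (single arrays 0.20 to 0.32). CPZ went to -1.72 in the authors' ratios. Single arrays spread most after rapamycin (-1.05 to -0.50), with tunicamycin (-1.89 to -0.92), after heat (-1.59 to -0.94), post-diauxic (-0.75 to -0.21) and with H2O2 (0.003 to 0.45). The med16Δ median of -1.15 became -1.26, -1.36, -1.09 and -1.27 with no correction, local subtraction, median centring and the authors' ratios, and med31Δ went to -1.98 with local subtraction. The cause was not tested.

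Of the 45 ratios of the 4 genes, median centring and loess fitted outside the ribosome genes moved 0 across 2-fold, no background correction 2, local subtraction 4, the authors' ratios 5, and single arrays 5 (without replicate 1) and 6 (without replicate 2). TMA10 untreated passed the limit with local subtraction (-1.01). Profile likeness by Spearman's rho put RVS161 first for RTC3 and YNL092W first for the mean, while GAL2, DER1 and MPD1 fell to ranks 59, 302 and 717 for RGI2.

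Numbers of genes at least 2-fold lower were 39 untreated (21 to 160 over the alternatives), 104 after rapamycin (71 to 225), 123 with CPZ (65 to 199), 42 with tunicamycin (17 to 87), 88 with H2O2 (37 to 285), 115 after heat (64 to 244), 113 post-diauxic (59 to 205), 6 in med16Δ (3 to 52), 44 in med31Δ (19 to 125) and 14 in cycCΔ (4 to 76). Higher were 162 with H2O2 (101 to 286), and after rapamycin 183 in med20Δ (131 to 364) and 226 in WT (164 to 515).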
